A study of Mus musculus with 14 samples.

Results

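The genes described here are those that keratinocytes switch on when they leave the basal layer of the epidermis and turn into the dead, cornified cells of the skin surface. The set was given by name and held 10 genes, namely Krt1, Krt10, Lor, Flg, Hrnr, Lce1a1, Lce1a2, Lce1b, Casp14 and Cdsn. Every probe set that the array annotation assigned to 1 of these genes and to no other gene was taken. This gave 13 of the 20380 single-gene probe sets on the array, or 10 of 12393 genes. All 10 genes were measured, and no filter on low values was applied.

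Levels came from total RNA of whole eyes of newborn mice (postnatal day 1) on 14 single-colour arrays, in a study of the chromatin remodelling ATPases Snf2h (gene Smarca5) and Brg1 (gene Smarca4). Snf2h cKO eyes carried a lens-conditional knockout of Snf2h on strain C57BL/6 (4 arrays), and Snf2h wildtype eyes were of the same strain and age (4 arrays). Brg1 cKO eyes (3 arrays) and Brg1 wildtype eyes (3 arrays) were of a mixed background at P1. The cells in which Brg1 was deleted are not given in the labels, and the genotype entry of all 3 knockout samples reads Brg1_cKO1 while their titles number them 1 to 3. The driver of the deletion and any pooling of eyes are not stated. The series text calls the replicates biological, but the labels tie no array to an animal. The p-values therefore measure the spread between these samples, which may be technical.

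In stratified squamous epithelium the cells of the basal layer divide, and their daughters move outward. These daughters replace basal keratins by Krt1 and Krt10 and later line their inner surface with cross-linked proteins, the cornified envelope. The surface epithelia of the cornea and conjunctiva are stratified but do not normally cornify, whereas the skin of the lids does.

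Snf2h wildtype replicate 3 stood apart from the other arrays. For the control transcript Gapdh, the 3' signal there was 4.47 above the 5' signal on the log2 scale, against 1.09 to 1.46 on the other Snf2h wildtype arrays. This sign of RNA quality was 0.77 to 0.99 in Snf2h cKO, 0.63 to 0.96 in Brg1 cKO and 0.68 to 0.74 in Brg1 wildtype eyes. For beta-actin, another control transcript, the same difference was 3.08 on Snf2h wildtype replicate 3. It was 1.44 to 2.18 on the other Snf2h wildtype arrays, 1.34 to 1.83 in Snf2h cKO eyes and at most 1.39 in the Brg1 experiment. Snf2h wildtype replicate 3 was thus highest for both controls, but stood less far apart for beta-actin than for Gapdh. The part of RNA quality in the results below was not tested. Snf2h cKO replicates 1 and 2 were nearly alike, with an SD of 0.217 between their log2 levels, against 0.419 to 0.723 for 17 other within-group pairs. Lens and retina markers were present on every array, with a mean log2 level of at least 7.84 over the lens list and 7.53 over the retina list. Neither targeted transcript passed the test in its own knockout. The log2 changes of the Smarca5 probe sets were −0.50, −0.19 and 0.31 in Snf2h cKO eyes (adjusted p = 0.188, 0.711 and 0.538). Those of the Smarca4 probe sets were 0.05 and −0.74 in Brg1 cKO eyes (adjusted p = 0.972 and 0.579). Which part of either gene was deleted is not stated, so these probe sets cannot check the labels.

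The terminal differentiation genes were high on a single array. On Snf2h wildtype replicate 3 each of the 13 probe sets had its highest level of the 14 arrays, against 17.3% of all probe sets. The lead over the next array was more than 1 on the log2 scale in 13 of 13 cases, against 0.447% of all. All 13 also exceeded the mean of the other 3 Snf2h wildtype arrays by more than 2, as did 0.319% of all probe sets. That excess ran from 4.80-fold for Krt10 to 34.9-fold for a Lor probe set. The genes and Snf2h wildtype replicate 3 were singled out with earlier results of these data known, so these counts and shares are a description. None of the 13 probe sets had an adjusted p under 0.05 in either knockout, with or without that array. Because whole eyes were used, fewer cells of a type and less RNA per cell cannot be told apart in any of these values.

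**Figure D1:**
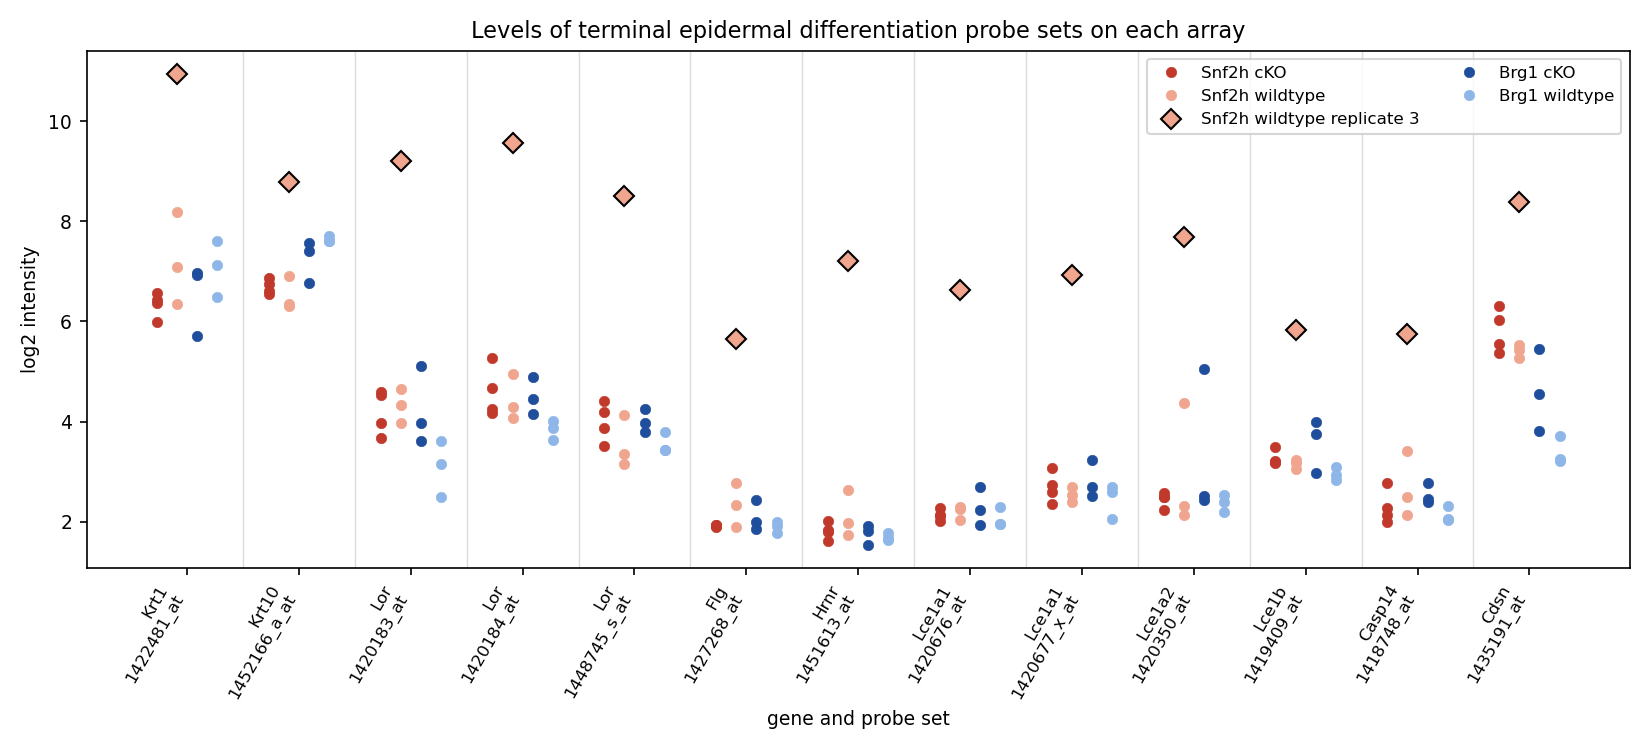
Level of each of the 13 probe sets on each of the 14 arrays. The vertical axis is log2 intensity, each point is 1 array, and within a probe set the groups run from left to right as Snf2h cKO, Snf2h wildtype, Brg1 cKO and Brg1 wildtype. The outlined diamond is Snf2h wildtype replicate 3, which lies above every other array for all 13 probe sets, at 9.22 against a highest other level of 5.11 for the first Lor probe set.

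The sequences before the starts of these genes are shown so that genes that were high together on 1 array can be compared there. RefSeq promoter entries (build GRCm38.p6) were matched for 9 of the 10 genes, with 10 entries in all since Cdsn has 2 (Krt1 is named only). The 250 bases before each start were searched on both strands for TATAAA, the core of a TATA box, and for TGANTCA, which includes the consensus of AP-1 factors and reads the same on both strands. TATAAA was found in 4 of the 10 entries and in 12.4% of all 32851 promoter entries. TGANTCA was found in 2 of the 10 entries and in 6.75% of all. The 4 genes with a match follow, each as the 120 bases before the start, 5' to 3' on the gene's own strand, with TATAAA and TGANTCA in capitals.
Krt10, chr11:99389365-99389484, minus strand: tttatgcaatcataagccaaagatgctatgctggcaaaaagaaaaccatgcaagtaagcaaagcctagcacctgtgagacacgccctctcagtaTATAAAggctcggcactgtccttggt
Lor, chr3:92083143-92083262, minus strand: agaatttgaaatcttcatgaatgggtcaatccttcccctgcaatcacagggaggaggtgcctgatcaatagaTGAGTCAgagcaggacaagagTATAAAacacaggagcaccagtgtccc
Flg, chr3:93273426-93273545, plus strand: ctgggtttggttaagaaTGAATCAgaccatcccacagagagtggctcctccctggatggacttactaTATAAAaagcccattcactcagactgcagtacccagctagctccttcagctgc
Hrnr, chr3:93319629-93319748, plus strand: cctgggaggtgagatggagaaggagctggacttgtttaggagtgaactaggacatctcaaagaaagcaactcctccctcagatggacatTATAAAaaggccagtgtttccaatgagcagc
TATAAA began 26 bases before the start in Krt10, 27 in Lor, 31 in Hrnr and 53 in Flg. TGANTCA began 48 bases before the start in Lor and 103 in Flg, and it did not overlap TATAAA. A match describes the letters of the window and is not evidence of a bound site.

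Krt1 and Krt10 encode the type II and type I keratins that pair in the filaments of suprabasal epidermis. Krt1 (probe set 1422481_at) had log2 levels of 6.44, 6.37, 5.99 and 6.57 in Snf2h cKO eyes, against 7.09, 6.34, 10.94 and 8.18 in Snf2h wildtype eyes. In the Brg1 experiment it had 5.71, 6.97 and 6.93 in cKO eyes, against 7.12, 7.60 and 6.48 in wildtype eyes. Wildtype replicate 3 was the highest of all arrays and wildtype replicate 4 the next, yet the Snf2h groups overlapped because wildtype replicate 2 lay among the knockout arrays. The Brg1 groups overlapped as well. The log2 change of Krt1 was −1.80 ± 0.81 (moderated SE) in Snf2h cKO eyes with an adjusted p of 0.284, and −0.86 ± 0.38 with an adjusted p of 0.342 once wildtype replicate 3 was left out. Its unadjusted p was 0.0507 with that array and 0.0499 without it. The change in Brg1 cKO eyes was −0.53 ± 0.41 with an adjusted p of 0.806.

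Krt10 (1452166_a_at, where the suffix a marks probes shared by transcripts of 1 gene) is the partner of Krt1. Its log2 levels were 6.86, 6.74, 6.55 and 6.62 in Snf2h cKO eyes and 6.31, 6.92, 8.79 and 6.35 in Snf2h wildtype eyes. They were 7.41, 6.77 and 7.57 in Brg1 cKO eyes and 7.72, 7.62 and 7.61 in Brg1 wildtype eyes. Only wildtype replicate 3 lay above the Snf2h cKO arrays by more than 1, and every Brg1 cKO array lay below every Brg1 wildtype array, by 0.04 at the closest. The Snf2h change was −0.40 ± 0.47 with all arrays (adjusted p = 0.678) and 0.17 ± 0.18 without wildtype replicate 3 (adjusted p = 0.710), so its sign turned with that array. The Brg1 change was −0.40 ± 0.23 with an adjusted p of 0.749.

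Loricrin (Lor) is the main protein of the cornified envelope in epidermis, and it was read by 3 probe sets. The first, 1420183_at, had log2 levels of 4.60, 4.54, 3.98 and 3.68 in Snf2h cKO eyes and 4.34, 4.65, 9.22 and 3.97 in Snf2h wildtype eyes. It had 3.62, 5.11 and 3.97 in Brg1 cKO eyes and 2.50, 3.61 and 3.16 in Brg1 wildtype eyes. The other 3 Snf2h wildtype arrays lay within or next to the range of the knockout arrays, and the Brg1 groups did not overlap, though their nearest arrays were 0.01 apart. The second Lor probe set, 1420184_at, had 5.26, 4.67, 4.17 and 4.25 in Snf2h cKO eyes against 4.96, 4.30, 9.57 and 4.07 in wildtype eyes. Its Brg1 levels were 4.45, 4.88 and 4.14 in cKO eyes and 3.88, 4.01 and 3.62 in wildtype eyes, again without overlap. The third, 1448745_s_at, whose suffix marks probes shared by several transcripts, had 4.41, 3.87, 3.52 and 4.18 in Snf2h cKO eyes and 4.14, 3.35, 8.51 and 3.15 in wildtype eyes. Its levels of 4.26, 3.79 and 3.96 in Brg1 cKO eyes and 3.42, 3.80 and 3.44 in Brg1 wildtype eyes overlapped.

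All 3 Lor probe sets gave the same picture of wildtype replicate 3, which exceeded the mean of the other wildtype arrays 29.8-fold, 34.9-fold and 31.2-fold. Their Snf2h changes were −1.35 ± 0.99, −1.14 ± 1.04 and −0.79 ± 1.01 with all arrays (adjusted p = 0.496, 0.584 and 0.704). When wildtype replicate 3 was left out, the changes were −0.12 ± 0.26, 0.14 ± 0.31 and 0.45 ± 0.28 (adjusted p = 0.866, 0.863 and 0.496), and those of 1420184_at and 1448745_s_at turned positive. In Brg1 cKO eyes the changes were 1.15 ± 0.43, 0.66 ± 0.23 and 0.45 ± 0.20 (adjusted p = 0.529, 0.499 and 0.632). The first and second had unadjusted p-values of 0.0309 and 0.0236 there, but neither passed after adjustment.

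The Lce1 genes encode late cornified envelope proteins, small cysteine-rich proteins that join the envelope after loricrin. They are near-identical copies, so signal of 1 member may include that of another, in particular for the probe set with the suffix x, which marks probes that match other sequences. The 120 bases before the starts of the 3 Lce1 genes are given to show how alike these neighbours are, from the same build, with the longest run found in all of them (15 bases) in capitals.
Lce1a1, chr3:92648308-92648427, minus strand: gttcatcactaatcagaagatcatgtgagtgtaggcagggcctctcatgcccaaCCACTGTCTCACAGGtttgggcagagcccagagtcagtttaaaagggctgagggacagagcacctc
Lce1a2, chr3:92670316-92670435, minus strand: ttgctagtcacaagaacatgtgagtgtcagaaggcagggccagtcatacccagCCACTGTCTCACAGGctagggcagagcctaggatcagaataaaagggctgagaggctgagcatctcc
Lce1b, chr3:92656927-92657046, minus strand: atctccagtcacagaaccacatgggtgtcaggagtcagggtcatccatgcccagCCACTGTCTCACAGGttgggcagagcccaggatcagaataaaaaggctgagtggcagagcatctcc
The shared run began 66 bases before the start in Lce1a1 and Lce1b and 67 bases before it in Lce1a2.

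Lce1a1 was read by 2 probe sets. The first, 1420676_at, had log2 levels of 2.13, 2.02, 2.12 and 2.27 in Snf2h cKO eyes and 2.04, 2.25, 6.62 and 2.30 in Snf2h wildtype eyes, with 1.93, 2.68 and 2.22 in Brg1 cKO eyes and 1.96, 1.95 and 2.29 in Brg1 wildtype eyes. The second, 1420677_x_at, had 2.73, 2.60, 2.35 and 3.06 in Snf2h cKO eyes and 2.52, 2.69, 6.93 and 2.40 in Snf2h wildtype eyes, with 2.51, 3.23 and 2.70 in Brg1 cKO eyes and 2.05, 2.70 and 2.58 in Brg1 wildtype eyes. Both were close to flat apart from wildtype replicate 3, which stood 21.5-fold and 21.0-fold above the mean of the other wildtype arrays. Lce1a2 (1420350_at) had 2.49, 2.57, 2.24 and 2.50 in Snf2h cKO eyes, against 2.31, 2.13, 7.69 and 4.37 in Snf2h wildtype eyes. Its levels were 2.42, 5.04 and 2.51 in Brg1 cKO eyes and 2.20, 2.39 and 2.54 in Brg1 wildtype eyes. Lce1a2 was thus also raised on Snf2h wildtype replicate 4 and on Brg1 cKO replicate 2, each above its own group's remaining arrays. Lce1b (1419409_at) had 3.21, 3.49, 3.20 and 3.17 in Snf2h cKO eyes and 3.06, 3.17, 5.84 and 3.23 in Snf2h wildtype eyes, with 3.76, 3.98 and 2.97 in Brg1 cKO eyes and 2.84, 2.93 and 3.09 in Brg1 wildtype eyes. Its highest level was again on wildtype replicate 3, and Brg1 cKO replicates 1 and 2 lay above every Brg1 wildtype array while replicate 3 did not.

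None of the Lce1 probe sets passed the test in either knockout. The Snf2h changes were −1.17 ± 0.88 and −0.95 ± 0.88 for Lce1a1, −1.68 ± 1.02 for Lce1a2 and −0.55 ± 0.54 for Lce1b (adjusted p = 0.505, 0.588, 0.412 and 0.609). With wildtype replicate 3 left out they were −0.06 ± 0.13 and 0.15 ± 0.18 for Lce1a1, −0.49 ± 0.48 for Lce1a2 and 0.12 ± 0.14 for Lce1b (adjusted p = 0.862, 0.745, 0.671 and 0.733). Leaving out wildtype replicate 4 as well turned Lce1a2 to 0.23 ± 0.15 (adjusted p = 0.487). The Brg1 changes were 0.21 ± 0.23 and 0.37 ± 0.26 for Lce1a1, 0.95 ± 0.65 for Lce1a2 and 0.62 ± 0.27 for Lce1b (adjusted p = 0.870, 0.790, 0.785 and 0.632). Without Brg1 cKO replicate 2 the Lce1a2 change was 0.09.

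Filaggrin (Flg) is made as a precursor stored in the granules of the granular layer, and its units bundle keratin filaments; hornerin (Hrnr) is a relative of the same fused-type family. Flg (1427268_at) had log2 levels of 1.93, 1.88, 1.91 and 1.93 in Snf2h cKO eyes and 1.90, 2.77, 5.65 and 2.33 in Snf2h wildtype eyes, with 1.98, 2.43 and 1.84 in Brg1 cKO eyes and 1.77, 1.99 and 1.91 in Brg1 wildtype eyes. Hrnr (1451613_at) had 1.61, 1.83, 1.78 and 2.0 in Snf2h cKO eyes and 1.73, 1.97, 7.21 and 2.63 in Snf2h wildtype eyes, with 1.54, 1.82 and 1.91 in Brg1 cKO eyes and 1.64, 1.66 and 1.77 in Brg1 wildtype eyes. Wildtype replicate 3 exceeded the mean of the other wildtype arrays 9.99-fold for Flg and 34.3-fold for Hrnr, and the groups of both experiments overlapped for both genes. The Snf2h changes were −1.25 ± 0.68 for Flg and −1.58 ± 1.02 for Hrnr (adjusted p = 0.363 and 0.436), and −0.42 ± 0.20 and −0.30 ± 0.22 without that array (adjusted p = 0.371 and 0.557). Both genes were nearly level in the Brg1 experiment, with changes of 0.20 ± 0.20 for Flg and 0.06 ± 0.17 for Hrnr (adjusted p = 0.857 and 0.955).

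Casp14 encodes caspase 14, a protease of cornifying keratinocytes that takes part in the breakdown of filaggrin. Its probe set (1418748_at) had log2 levels of 2.0, 2.13, 2.27 and 2.78 in Snf2h cKO eyes and 2.50, 2.13, 5.75 and 3.41 in Snf2h wildtype eyes, with 2.45, 2.40 and 2.78 in Brg1 cKO eyes and 2.04, 2.31 and 2.04 in Brg1 wildtype eyes. Wildtype replicate 3 was highest and wildtype replicate 4 second, and the Brg1 groups did not overlap, with 0.09 between their nearest arrays. The changes were −1.15 ± 0.66 in Snf2h cKO eyes (adjusted p = 0.386), −0.39 ± 0.31 without wildtype replicate 3 (adjusted p = 0.60) and 0.41 ± 0.18 in Brg1 cKO eyes (adjusted p = 0.635).

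Cdsn encodes corneodesmosin, an adhesive glycoprotein of the desmosomes that hold cornified cells together. Its probe set (1435191_at) had log2 levels of 6.03, 6.31, 5.55 and 5.37 in Snf2h cKO eyes and 5.53, 5.43, 8.40 and 5.28 in Snf2h wildtype eyes. The Brg1 levels were 4.55, 5.45 and 3.82 in cKO eyes and 3.21, 3.25 and 3.72 in wildtype eyes. Wildtype replicate 3 was 7.91-fold above the mean of the other wildtype arrays, which themselves lay at or below most of the knockout arrays, and the Brg1 groups did not overlap. The Snf2h change was −0.34 ± 0.62 (adjusted p = 0.794) and became 0.40 ± 0.23 without wildtype replicate 3 (adjusted p = 0.459). The Brg1 change of Cdsn, 1.22 ± 0.39, had the smallest p-value of the 13 probe sets in that comparison (unadjusted 0.0166), and its adjusted p was 0.418.

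Across the set, Snf2h cKO eyes showed no called change (limma, adjusted p under 0.05): 0 of 13 probe sets passed, against 0.0% of all probe sets. At an unadjusted p under 0.05, 0 of 13 passed, against 17.7% of all. All 13 log2 changes were negative, against 53.8% of all, with a median of −1.15 for the set and −0.03 for all probe sets. When wildtype replicate 3 was left out, 0 of 13 passed against 0.00491% of all, and 1 of 13 (Krt1) had an unadjusted p under 0.05 against 14.6% of all. The number of negative changes was then 7 of 13, against 51.6% of all, and the median was −0.06, against −0.01 for all probe sets. In 0 of 13 probe sets did the Snf2h groups fail to overlap with all arrays, against 10.7% of all, and likewise 0 of 13 against 13.1% without wildtype replicate 3. Snf2h wildtype replicate 4 exceeded the mean of wildtype replicates 1 and 2 by more than 1 in 3 of 13 probe sets (2.15 for Lce1a2, 1.46 for Krt1 and 1.10 for Casp14), as did 3.11% of all probe sets.

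The Brg1 experiment has no counterpart of that array. In Brg1 cKO eyes 0 of 13 probe sets passed (limma), against 0.623% of all, and 3 of 13 (Cdsn and 2 Lor probe sets) had an unadjusted p under 0.05, all higher, against 4.44% of all in that direction. The log2 change was above 0 in 11 of 13 probe sets, against 49.1% of all. It was below 0 for Krt1 and Krt10, which had the highest levels of the set in this experiment. The median change of the set was 0.41, against −0.01 for all probe sets. Every Brg1 cKO array was higher than every wildtype array in 4 of 13 probe sets (Cdsn, Casp14 and 2 of Lor), against 7.23% of all, and lower in 1 of 13 (Krt10), against 6.2% of all. Brg1 cKO replicate 2 exceeded the mean of the other Brg1 cKO arrays by more than 1 for Lce1a2 (2.58), the first Lor probe set (1.31) and Cdsn (1.26), 3 of 13 against 5.36% of all. The set's summed intensity was 339 to 435 in Brg1 cKO eyes and 366 to 478 in Brg1 wildtype eyes. In the Snf2h experiment it was 284 to 389 in cKO eyes, 340 to 514 on 3 wildtype arrays and 5204 on wildtype replicate 3.

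**Figure D2:**
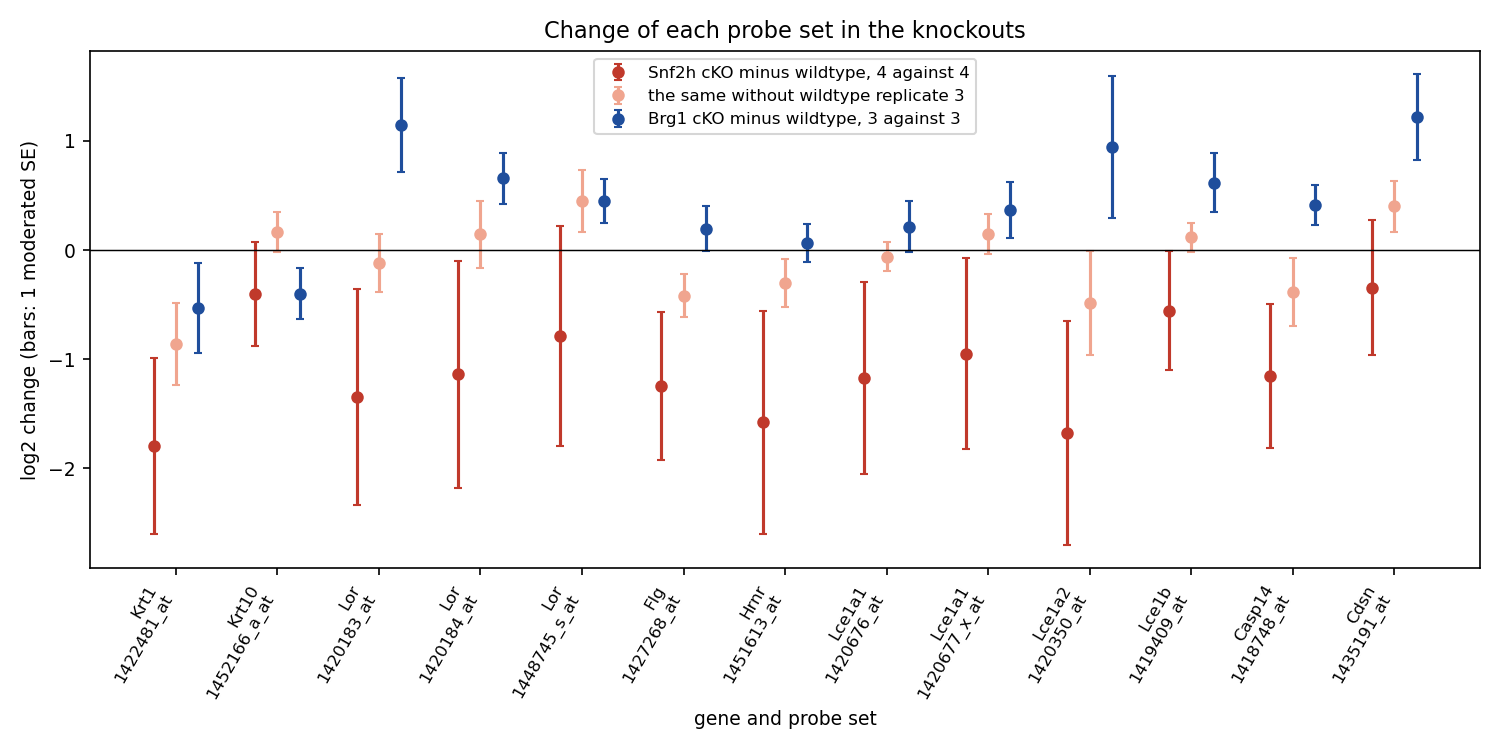
Log2 change of each of the 13 probe sets in Snf2h cKO eyes with all 8 arrays, in Snf2h cKO eyes without wildtype replicate 3, and in Brg1 cKO eyes, each against its own wildtype. Points are limma estimates and bars are 1 moderated SE on each side. The wide bars of the first series belong to the fit that holds wildtype replicate 3, for example −1.58 ± 1.02 for Hrnr, against −0.30 ± 0.22 without it.

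The test of the difference between the knockout effects, Brg1 minus Snf2h, gave 0 of 13 called probe sets (limma) against 0.687% of all, and 0 of 13 at an unadjusted p under 0.05 against 12.6% of all. Strain and experiment change together with the remodeller here, and the cells of Brg1 deletion are not stated. Their parts in any difference cannot be told apart. All 13 differences were positive, from 0.00 for Krt10 to 2.62 for Lce1a2, with 52.6% of all probe sets positive. Without wildtype replicate 3, 12 of 13 were still positive (51.4% of all), 0 of 13 were called (0.432% of all), 1 of 13 (the first Lor probe set) had an unadjusted p under 0.05 (10.5% of all), the median of the set was 0.50 in place of 1.44 (0.01 for all probe sets), and Krt10 stood at −0.56. The smallest adjusted p among those of the 13 tested under each alternative setting was 0.158 in the Brg1 comparison (first Lor probe set), 0.198 in the Snf2h comparison (Krt1) and 0.291 for the difference (first Lor probe set).

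The 13 probe sets were only loosely alike outside that array. Over the 13 arrays without Snf2h wildtype replicate 3, the 78 pairs of probe sets had a median Pearson r of 0.22, with a range of −0.86 to 0.79, and 52 pairs were positive. These points share strain and group differences, and pairs from 1 gene share their transcript. The mean deviation of the set from each probe set's median over the 14 arrays was −0.16 to 0.15 in Snf2h cKO eyes and 0.03 to 0.31 in Snf2h wildtype eyes, apart from 4.11 on wildtype replicate 3. It was −0.09 to 0.53 in Brg1 cKO eyes and −0.41 to −0.15 in Brg1 wildtype eyes. Among the probe sets of other genes that reached a log2 level of 7 on at least 1 array (12128), the profile was most like those of Cacna1a (r = 0.93), Pla2g2f (0.92), Klk7 (0.92), Krt71 (0.88), Hacl1 (0.87), Hs2st1 (0.86), Krt27 (0.86) and Pter (0.85) over the 14 arrays. Wildtype replicate 3 was the highest array for each of these 8, which a profile with its peak of 4.11 there selects for. Over the 13 other arrays the most alike were instead Tgm2 (0.95), Sertad1 (0.95), Ehd1 (0.91), Chpf (0.91), Tyrobp (0.90), Gmppb (0.90), Slc9a3r2 (0.90) and Tmbim1 (0.89), among 12003 probe sets that reached 7 on those arrays. No gene was in both lists. Of the 8 first named, however, only Hacl1 reached 7 outside wildtype replicate 3 (7.60). The others could not enter the second list.

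Other genes of cornification passed the test in Brg1 cKO eyes. Of 108 further genes in 5 lists, 63 were measured with 77 probe sets, and 7 of these rose and 1 fell in Brg1 cKO eyes, against 0.363% of all probe sets higher and 0.26% lower. All 7 that rose are in the list of envelope precursors (26 probe sets). Sprr1b, a small proline-rich protein of the envelope, had log2 levels of 7.28, 7.78 and 8.27 in Brg1 cKO eyes, against 2.17, 2.25 and 2.06 in Brg1 wildtype eyes, a change of 5.62 ± 0.26 or 49.1-fold (adjusted p = 0.000537). Sprr1a of the same family had 8.82, 9.17 and 9.56 in cKO eyes, against 4.80, 4.39 and 4.49 in wildtype eyes, a change of 4.62 ± 0.23 or 24.6-fold (adjusted p = 0.000537). Dmkn, which encodes the secreted protein dermokine, had 8.47, 8.73 and 9.15 in cKO eyes, against 5.17, 5.52 and 5.21 in wildtype eyes, a change of 3.49 ± 0.22 (adjusted p = 0.00118). These 3 were above their wildtype arrays in every knockout sample, and their adjusted p was at most 0.0404 under every alternative setting that tested them. Sprr2d, Sprr2h, Sprr3 and Crct1 rose by 3.31 ± 0.36, 3.40 ± 0.44, 2.23 ± 0.30 and 2.08 ± 0.31 (adjusted p = 0.0138, 0.0267, 0.0298 and 0.0434). Scel, which encodes the envelope protein sciellin, fell by 1.58 ± 0.21 (adjusted p = 0.0286). These 5 calls were lost when any 1 of the Brg1 wildtype arrays was left out and when 32 was added to the intensities. Some were also lost when a knockout array was left out or under other settings. In all, a call was lost in 20 cases with an array left out and in 10 under other alternatives, with adjusted p-values (limma) up to 0.394.

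The remaining lists held few or no calls. In Brg1 cKO eyes 0 of 18 probe sets in the list of cross-linking enzymes and proteases rose and 1 fell. That 1 was Scel, an envelope protein placed in this list, and not an enzyme or protease. None passed the test among 19 for barrier lipids, 10 for desmosomes and 4 for other suprabasal keratins. The barrier lipid enzyme Alox12e and the keratin Krt23, named after their values were seen, had log2 changes of −3.31 ± 0.71 and −1.25 ± 0.27 without overlap of the Brg1 groups (adjusted p = 0.149 for both). Alox12e and Scel were also lower without overlap in Snf2h cKO eyes, by −2.33 ± 0.48 and −0.88 ± 0.26 (limma, adjusted p = 0.0888 and 0.162). Without wildtype replicate 3 these were −1.97 ± 0.45 and −0.64 ± 0.20, again without overlap. Krt23 overlapped there, at −0.41 ± 0.63 with all arrays. In Snf2h cKO eyes 0 of the 77 passed with or without wildtype replicate 3, against 0.0% and 0.00491% of all probe sets. The median change of the 77 was 0.15 in Brg1 cKO eyes, −0.28 in Snf2h cKO eyes and −0.09 in Snf2h cKO eyes without wildtype replicate 3. On wildtype replicate 3 the 77 were less uniform than the set. There 9 exceeded the mean of the other wildtype arrays by more than 2 (7 envelope precursors, Klk7 and Alox12b), against 0.319% of all probe sets. These envelope precursors include Lce1d, Lce1h and Lce1i, whose probe sets carry the suffix x and may read other Lce1 genes. The test of the difference between the knockout effects called 7 of the 77 higher in Brg1 (Sprr1b, Sprr1a, Sprr2d, Sprr2h, Sprr3, Krtdap and Lce3a) and 0 of the 13 terminal differentiation probe sets. Without wildtype replicate 3, Krtdap (adjusted p = 0.0607) and Lce3a (0.0887) no longer passed and Dmkn did (0.0306).

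**Figure D3:**
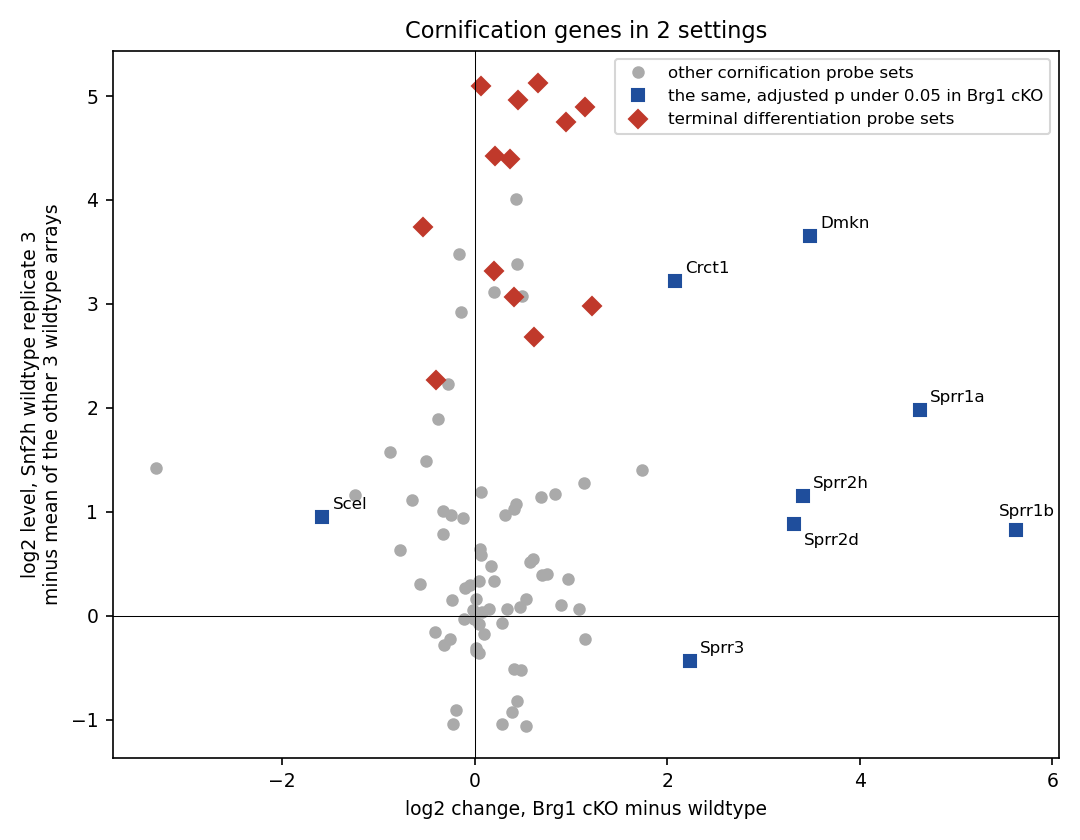
Each of the 13 terminal differentiation probe sets and the 77 probe sets of other cornification genes, by log2 change in Brg1 cKO eyes (horizontal axis) and by log2 level on Snf2h wildtype replicate 3 minus the mean of the other 3 wildtype arrays (vertical axis). Diamonds, the terminal differentiation probe sets, all lie above 2 on the vertical axis and between −0.53 and 1.22 on the horizontal one. Squares mark the 8 other probe sets called in Brg1 cKO eyes, up to 5.62 for Sprr1b.

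Markers of other cells that a whole eye can hold were read on the same arrays. The hair follicle list (24 probe sets) was highest of the 14 arrays on Snf2h wildtype replicate 3 for 17 of 24, against 17.3% of all probe sets. Of the 24, 7 exceeded the mean of the other Snf2h wildtype arrays by more than 1 there, with a median excess of 0.64. The summed intensity of this list was 1567 there, against 362 to 548 on the other wildtype arrays and 321 to 361 in Snf2h cKO eyes. Krt25, a keratin of the inner root sheath, had a log2 level of 9.12 on that array and 6.78 on wildtype replicate 4, against 3.46 and 3.74 on the other 2 and 3.59 to 4.65 in Snf2h cKO eyes. Krt75, a keratin of the hair follicle, had 7.36 there, against 4.93 to 6.39 on the other wildtype arrays, and trichohyalin (Tchh) had 7.30, against 4.40 to 5.92. Basal keratinocyte markers were highest there for 4 of 13 probe sets, against the same 17.3% of all. Krt5, a keratin of basal cells, had 11.86 on that array, against 10.21 to 10.92 on the other wildtype arrays and 9.45 to 10.12 in Snf2h cKO eyes. Krt15, another basal keratin, had 10.28 there and 11.37 on wildtype replicate 4, and the integrin Itga6 had 9.52 there and 9.91 on wildtype replicate 1, so neither was highest on replicate 3. The list's summed intensity was 7808 on wildtype replicate 3, and 3123 to 7134 on the other wildtype arrays. Counts of probe sets highest on that array were 5 of 15 for corneal epithelium, 5 of 14 for conjunctiva and mucosa, 0 of 9 for wound keratinocytes, 1 of 8 for fat, 2 of 8 for melanocytes, 0 of 11 for lens and 0 of 10 for retina. Each is to be read against the 17.3% of all probe sets. Summed intensity of the lens list was 37782 on wildtype replicate 3, below 51535 to 59094 on the other wildtype arrays. It lay above theirs for conjunctiva and mucosa (9818 against 4793 to 8773), corneal epithelium (31986 against 24512 to 28080) and melanocytes (11120 against 9407 to 10532). For retina and fat it lay within their range. The wound list was highest in Brg1 cKO eyes, but 4 of its 9 probe sets exceeded the other Snf2h wildtype arrays by more than 1 on wildtype replicate 3, with a median excess of 0.69. Its summed intensity of 2426 there stood above 912 to 2145 on the other wildtype arrays and 889 to 1508 in Snf2h cKO eyes. The part of these cells in the levels of the terminal differentiation genes was not tested.

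None of the 9 marker lists held a called probe set in Snf2h cKO eyes. That comparison called 0.0% of all probe sets, so the absence of calls says nothing particular about these lists. In Brg1 cKO eyes 4 of 9 wound keratinocyte probe sets rose, namely Krt16 by 6.75 ± 0.26, S100a8 by 5.01 ± 0.54, S100a9 by 4.48 ± 0.41 and Krt6b by 2.98 ± 0.35 (adjusted p = 0.000267, 0.0138, 0.0073 and 0.0161). Both probe sets of Krt12, the keratin of corneal epithelium, fell by 4.10 ± 0.29 and 3.70 ± 0.20 (adjusted p = 0.00214 and 0.000546). Of the lens markers Gja3, a connexin of lens fibres, was the 1 called, with a fall of 2.89 ± 0.39 (adjusted p = 0.0297). The log2 change was negative for all 11 lens probe sets, with a median of −2.28, and the list's summed intensity was 12502 to 33611 in Brg1 cKO eyes, against 54325 to 60543 in Brg1 wildtype eyes. The conjunctiva and mucosa list held no call but was lower for 12 of 14 probe sets, with a median of −1.08. The other 5 lists held no call. The part of these shifts in the Brg1 values of the terminal differentiation genes was not tested. The wound list's summed intensity was 7744 to 19559 in Brg1 cKO eyes, against 1479 to 1620 in Brg1 wildtype eyes. For the terminal differentiation set the summed intensity overlapped between the same groups. The mean log2 level did not, at 3.58, 4.20 and 3.64 in Brg1 cKO eyes and 3.26, 3.52 and 3.40 in Brg1 wildtype eyes. That mean gives dim probe sets equal weight, such as Flg and Hrnr, with means of 1.89 and 1.69 in Brg1 wildtype eyes. Median log2 levels over the arrays were 6.66 to 6.83. The brightest of the set in this experiment, Krt1 and Krt10, changed by −0.53 and −0.40. How often the mean of such a list fails to overlap was not tested.

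**Figure D4:**
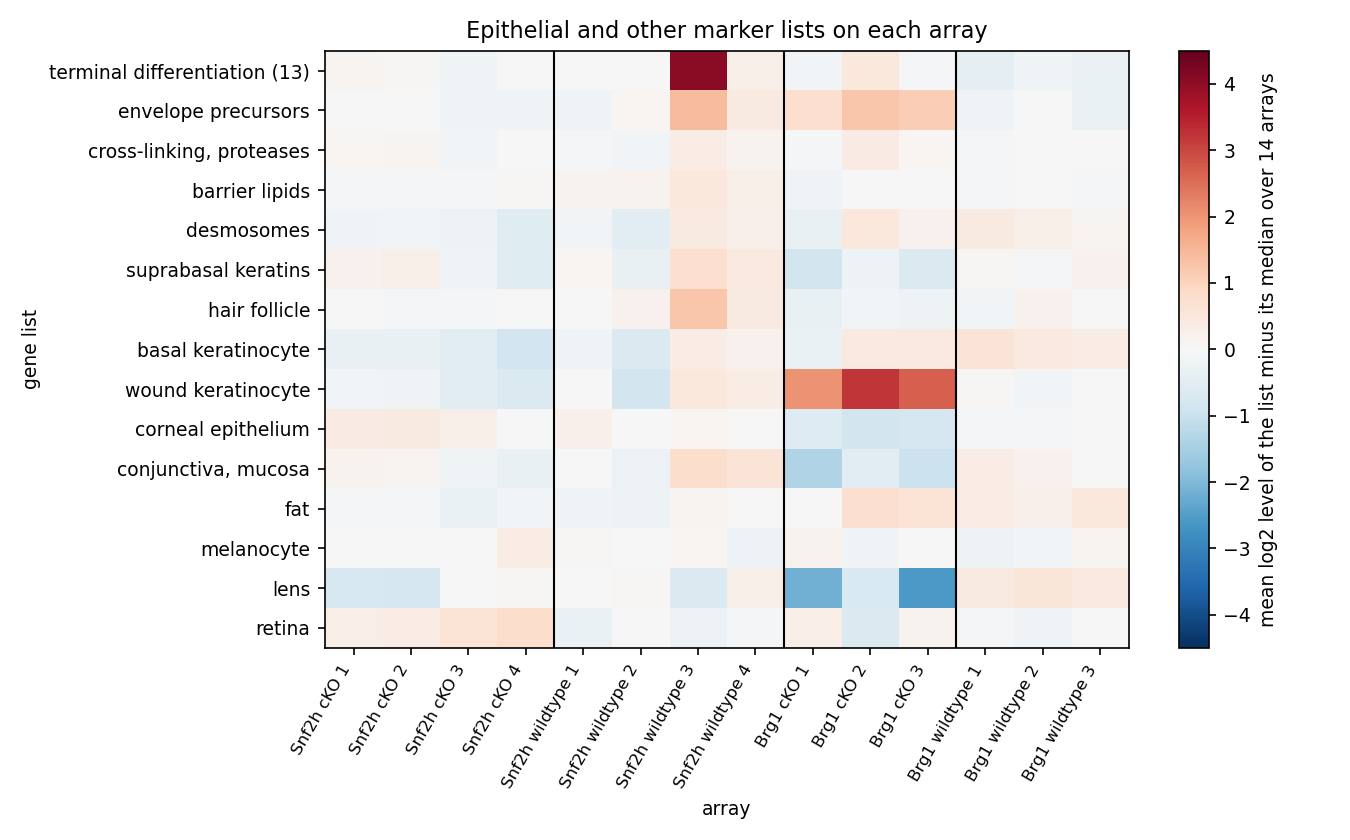
Mean log2 level of the 13 terminal differentiation probe sets and of 14 further gene lists on each array, minus that list's median over the 14 arrays, on a colour scale in log2 units. Columns are arrays, with vertical lines between the groups, and rows are lists. The top row is 4.07 on Snf2h wildtype replicate 3 and between −0.45 and 0.49 on the other arrays, and the wound keratinocyte row is high on the 3 Brg1 cKO arrays.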

How the data were processed

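Deposited intensity values per probe set, on a linear scale, had been made with RMA, which the submitters' processing notes name; its version, and whether both experiments were processed together, are not given in the sources used here. All 14 columns were tied to samples by name, and 0 columns were left unmapped. Per the labels' protocols, 50 ng of RNA was amplified before biotin labelling. The log2 of the deposited intensity was taken with no offset and no further scaling, and median log2 levels were 6.66 to 6.83 over the arrays. Of 22690 probe sets, 64 controls, 691 with several genes and 1555 with no gene were left out. Gene symbols came from the array annotation; checking them in the RefSeq table changed 0. The table held no detection calls. Dim probe sets were therefore not left out, and background compresses their changes. Precision is limited by how many arrays each group has.

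Each knockout was compared with the wildtype arrays of its own experiment by limma 3.58.1 (lmFit, eBayes) in R 4.3.3, two-sided, with Benjamini-Hochberg adjustment over all 20380 probe sets and calls at an adjusted p under 0.05. The difference of effects was tested as a contrast in a model with 4 group means on all 14 arrays. Each error is a moderated standard error (SE). The procedure was tested on simulated data.

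The genes and lists were chosen with earlier results of these data known. The lists were envelope precursors, cross-linking enzymes and proteases, barrier lipids, desmosomes, other suprabasal keratins, and markers of basal keratinocytes, hair follicle, corneal epithelium, conjunctiva and mucosa, wound keratinocytes, fat, melanocytes, lens and retina. By rule, every probe set of the 10 genes was shown, other cornification genes were named where called (up to 12 a contrast by p), marker lists were given by counts with up to 3 genes of the highest mean level, and the 8 probe sets most like the set's profile were named. Called marker genes outside that rule were named after their values were seen.

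Alternatives were quantile normalization, a filter on dim probe sets (mean log2 level above 6.87, which kept 10190), 1 probe set a gene, log2(intensity + 32), array weights, trended robust eBayes, the replicate number as a block, averaging Snf2h cKO replicates 1 and 2, and leaving out each array. Same-numbered knockout and wildtype arrays deviated from their group means with correlations of −0.23 to 0.06 in the Snf2h experiment and 0.07 to 0.13 in the Brg1 experiment, and no label says that a number marks a shared litter or day, so the numbers were not taken as pairs.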

Additional observations from a re-analysis of the deposited data

Results flagged for a closer look

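In the groups of 4 arrays, the highest or lowest array was set against the gap to its nearest neighbour (Dixon's criterion) for 42 combinations of probe set and group. Chance marks about 1 in 20 such groups, but the genes and this array were singled out with earlier results known, and repeat probe sets of Lor and Lce1a1 read the same transcripts, so the marks are a description. It marked 8, all among the 13 terminal differentiation probe sets. Snf2h wildtype replicate 3 was the array far above its group in 7 of them, at log2 levels of 9.22 and 9.57 for Lor, 7.21 for Hrnr, 6.62 and 6.93 for Lce1a1, 5.84 for Lce1b and 8.40 for Cdsn. In the 8th case Snf2h cKO replicate 2 lay above its group for Lce1b, at 3.49. For the other terminal differentiation probe sets (Krt1, Krt10, the third of Lor, Flg, Lce1a2 and Casp14) wildtype replicate 3 was also highest, but the spread of the remaining wildtype arrays kept the gap below the criterion.

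The knockout effects differed, by the test of Brg1 minus Snf2h (limma, adjusted p under 0.05), for 7 probe sets of other cornification genes. The difference was 5.49 for Sprr1b, 5.04 for Sprr1a, 3.84 for Sprr2h, 3.48 for Sprr2d, 2.78 for Krtdap, 2.11 for Sprr3 and 1.15 for Lce3a. None of the 13 terminal differentiation probe sets was among them. Remodeller, strain, experiment and cells of deletion cannot be told apart in these differences.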

How the results depend on the processing

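No terminal differentiation probe set was called under any alternative that tested it; the dim filter kept 2 of the 13 (Krt1 and Krt10), and 1 probe set a gene kept 10. Leaving out 1 array in turn gave Snf2h changes of −2.40 to −0.86 for Krt1, −0.66 to 0.17 for Krt10, −1.87 to −0.12, −1.69 to 0.14 and −1.34 to 0.45 for the 3 Lor probe sets, −1.67 to −0.42 for Flg, −2.13 to −0.30 for Hrnr, −1.59 to −0.06 and −1.36 to 0.15 for Lce1a1, −2.34 to −0.49 for Lce1a2, −0.81 to 0.12 for Lce1b, −1.59 to −0.39 for Casp14 and −0.64 to 0.40 for Cdsn. The end nearest 0 or above it is in each case the value without wildtype replicate 3. Of the Brg1 changes only Hrnr turned sign (−0.013 to 0.17), and the difference for Krt10 ran from −0.56 to 0.26.

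Array weights turned the Snf2h change of Cdsn to 0.23 and the difference for Krt10 to −0.15. Chosen after seeing the data, leaving out wildtype replicates 3 and 4 together turned 6 of the 13 positive, with 0.0798 for Krt10, 0.25 for 1448745_s_at of Lor, 0.0805 for the second of Lce1a1, 0.23 for Lce1a2, 0.16 for Lce1b and 0.33 for Cdsn, while the other 7 stayed negative (−0.42 for Flg to −0.012 for 1420676_at of Lce1a1). Leaving out wildtype replicate 3 with Snf2h cKO replicates 1 and 2 averaged, also chosen then, turned 6 positive, with 0.13 for Krt10, 0.017 for 1420184_at and 0.40 for 1448745_s_at of Lor, 0.16 for the second of Lce1a1, 0.0881 for Lce1b and 0.28 for Cdsn, while the other 7 stayed negative (−0.88 for Krt1 to −0.043 for 1420676_at of Lce1a1).

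Calls over all probe sets moved more. The Snf2h comparison called 0, but 5 with the dim filter, 2 with 1 probe set a gene, 3 with the offset, 561 with array weights, 7 with trended robust eBayes, 1 without wildtype replicates 3 and 4, and 0 to 184 when 1 array was left out (184 without wildtype replicate 1, 77 without wildtype replicate 4). The Brg1 comparison called 127, but 15 with the dim filter, 16 with the offset and 25 to 199 with 1 array left out. The difference called 140, but 7 with the dim filter, 47 with the offset, 82 with Snf2h cKO replicates 1 and 2 averaged and 66 to 290 with 1 array left out. The filters test fewer or compressed values; the cause of the other shifts was not tested. With the replicate number as a block, which the data gave no ground to treat as pairs, the counts were 0, 50 and 81, and 0 of the 13 probe sets were called.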

Other observations

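The loci of 6 of the 10 genes lie in 1 stretch of mouse chromosome 3, the epidermal differentiation complex. From Lor to Tchh in the RefSeq gene order this stretch held 70 genes, 50 of them protein coding, of which 29 were measured with 35 probe sets; the stretch was chosen after the values were seen. On Snf2h wildtype replicate 3, 16 of the 35 exceeded the mean of the other wildtype arrays by a log2 of more than 2. These were all 9 probe sets of the terminal differentiation genes and 4 of 9 probe sets of other Lce genes (Lce1d, Lce1f, Lce1h and Lce1i). The rest were 3 of 8 other probe sets (Crct1, Rptn and Tchh), with 0 of 9 for Sprr genes. Of the Sprr probe sets 2 had an excess of more than 1, namely Sprr1a (1.98) and Sprr2h (1.15). The probe sets of Lce1d, Lce1h and Lce1i carry the suffix x, so their signal may include that of other Lce1 genes. Lce1f and Rptn were not uniform. The excess of their remaining probe sets was 0.58 for Lce1f, and −0.08 and −0.34 for Rptn. In Brg1 cKO eyes the calls in the same stretch were 5 of 9 Sprr probe sets and Crct1, all higher, and 0 of the 9 terminal differentiation and 0 of the 9 other Lce probe sets. The median excess on wildtype replicate 3 was 4.75 for the terminal differentiation probe sets and 0.35 for Sprr probe sets, while the median Brg1 changes were 0.45 and 2.23.

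Over the whole array, 65 probe sets exceeded the other Snf2h wildtype arrays by more than 2 on wildtype replicate 3, of which 13 belong to the terminal differentiation genes, 14 to other lists and 38 to none. Of the 10 largest, 7 are terminal differentiation probe sets. Among those in no list were Pla2g2f (3.87), Gsdma (3.78), Cyp2b19 (2.80), Krt79 (2.71) and Mt4 (2.56), named after their values were seen. The others included the Y-linked Eif2s3y (5.09) and Kdm5d (2.31) and 3 probe sets of the MHC class I gene H2-D1 (4.04, 3.30 and 2.51). For Eif2s3y and Kdm5d another array was higher, and for H2-D1 the next array lay 0.24 to 0.54 below. In Brg1 cKO eyes 4 of the 52 that are not terminal differentiation probe sets were called: Dmkn and Crct1 higher, Wfdc18 and an Elf5 probe set lower.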
